A study of Mus musculus with 14 samples.

Results

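The Wnt ligands, their Frizzled receptors and Lrp co-receptors, the secreted Sfrp and Dickkopf antagonists, the R-spondins and the Axin scaffolds were examined in C2C12 cells, an established line of mouse myoblasts. Members were taken by gene symbol (Wnt, Fzd, Sfrp1 to Sfrp5, Dkk1 to Dkk4, Lrp5, Lrp6, Axin1, Axin2 and Rspo1 to Rspo4), without use of any measured value, and 45 of the 24016 transcripts in the table were members. The cells received a control siRNA (siCtrl) or a pool of siRNAs against Klf5 (siKlf5), a zinc-finger transcription factor, and were then placed in differentiation medium with low horse serum. Poly(A) RNA was sequenced on days 0, 1, 2 and 3, with 1 library for each siRNA and day and 8 libraries in all. There were thus 4 siCtrl and 4 siKlf5 libraries, and no replicate of any siRNA and day. All libraries came from 1 cell line and 1 siRNA pool against Klf5, and every culture had been transfected. The series holds 14 samples, and its ChIP-seq samples were not analysed here.

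Wnt proteins are secreted lipid-modified ligands that bind Frizzled receptors. In the canonical branch, Lrp5 or Lrp6 binds the same ligand, the Axin scaffold is drawn to the membrane, and beta-catenin escapes degradation and enters the nucleus with Tcf and Lef factors. Sfrp proteins bind Wnts outside the cell, most Dickkopf proteins bind Lrp5 and Lrp6, and R-spondins stabilise Frizzled receptors at the surface. In skeletal muscle, Wnt signalling is known for parts in embryonic myogenesis and in the differentiation of satellite cells during regeneration.

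Levels are given as the deposited FPKM, which corrects for transcript length and sequencing depth. The authors' scaling makes these values exceed conventional FPKM, and they can be compared between genes and libraries of this table only. The reads recovered from the values numbered between 7850497 and 20301506 per library. If single reads were independent, a transcript of 1 kb listed at 0 could hold up to 3 reads, which is 0.893 FPKM in the deepest library and 2.34 in the shallowest. With reads in units of 6, as used for the intervals below, the limit would be larger, and limits of this kind cover counting error only. Klf5 itself was at 224, 381, 614 and 933 FPKM in siCtrl on days 0, 1, 2 and 3, and at 35.1, 160, 192 and 211 in siKlf5. It stood at 15.7%, 41.9%, 31.3% and 22.7% of the siCtrl level on these days. All 4 of the myoblast markers examined were present, with Myod1 between 398 and 557 FPKM, and all 6 markers of differentiating muscle rose on day 3 while all 4 cycling-cell markers fell. Summed over 6 markers of blood, endothelium, epithelium, fat, bone and neural crest, no library exceeded 3.81 FPKM, and Ibsp and Epcam were at 0 in every library.

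Of the 45 members, 26 had a mean of at least 1 FPKM over the 8 libraries and entered the tests, and 14 of these had a mean of at least 10. The 14 were the ligands Wnt10b, Wnt10a, Wnt9a and Wnt7b, the receptors Fzd7, Fzd2, Fzd1, Fzd6, Fzd5 and Fzd3, both co-receptors, Dkk2 and Axin1. The 12 members with a mean between 1 and 10 were Wnt2b, Wnt4, Wnt5b, Wnt6, Wnt11, Fzd4, Fzd8, Fzd9, Sfrp2, Sfrp4, Dkk3 and Axin2. Another 19 lay below a mean of 1, and none of these reached more than 2.15 FPKM in any library. Of these, Dkk1, Dkk4, Fzd10, Rspo1, Rspo4, Wnt16 and Wnt8b were listed at 0 in all 8 libraries. The remaining 12 were Wnt1, Wnt2, Wnt3, Wnt3a, Wnt5a, Wnt7a, Wnt8a, Wnt9b, Sfrp1, Sfrp5, Rspo2 and Rspo3. No R-spondin entered the tests, and the highest R-spondin value was 1.40 FPKM, for Rspo3. The most abundant receptors and co-receptors were thus Fzd7, Fzd2, Lrp5 and Fzd1, with means of 188, 166, 164 and 149 FPKM, while the highest ligand mean was 73.5, for Wnt10b.

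Promoter sequence was at hand, in the RefSeq table for GRCm38.p6, for 28 of the 45 members and for 6 of the 14 with a mean of at least 10. The 250 bases before the start are shown for Wnt9a and Fzd1, which rose over differentiation, and for Dkk2, which had a day 1 peak in siCtrl. Capitals mark CCGCCC on either strand, a GC-box core of the kind that Sp and Klf proteins bind. The windows are chr11:59306680-59306929 on the plus strand for Wnt9a, chr5:4758217-4758466 on the minus strand for Fzd1 and chr3:132085042-132085291 on the plus strand for Dkk2.
Wnt9a: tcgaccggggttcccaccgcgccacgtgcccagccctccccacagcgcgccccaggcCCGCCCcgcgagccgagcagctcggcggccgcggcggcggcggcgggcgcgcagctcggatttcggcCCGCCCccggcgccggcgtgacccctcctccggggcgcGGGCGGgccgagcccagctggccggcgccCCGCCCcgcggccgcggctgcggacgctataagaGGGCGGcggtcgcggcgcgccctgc
Fzd1: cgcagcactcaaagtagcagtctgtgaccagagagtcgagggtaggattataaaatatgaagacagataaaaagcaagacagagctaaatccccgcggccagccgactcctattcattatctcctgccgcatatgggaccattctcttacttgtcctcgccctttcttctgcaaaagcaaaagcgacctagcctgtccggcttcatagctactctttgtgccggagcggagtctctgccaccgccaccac
Dkk2: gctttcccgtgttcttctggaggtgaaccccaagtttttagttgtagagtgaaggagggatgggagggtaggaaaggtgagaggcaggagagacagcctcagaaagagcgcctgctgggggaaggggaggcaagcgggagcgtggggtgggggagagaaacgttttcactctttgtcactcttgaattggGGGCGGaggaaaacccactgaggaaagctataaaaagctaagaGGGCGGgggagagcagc
The Wnt9a window held 5 copies of CCGCCC, the Dkk2 window 2 and the Fzd1 window 0. Of the windows not shown, that of Fzd5 held 9 copies, that of Fzd7 6 and that of Wnt10b 0. At least 1 copy was thus present in 4 of the 6. No link between the copies and the expression of these genes was tested. Over all 32851 promoters of the same length, 32.7% held at least 1 copy. The letters CANNTG, the E-box form that MyoD and myogenin bind, occurred in 66.2% of all promoters and in 4 of the 6. The letters CTTTGA, a core of Tcf and Lef sites, occurred in 13.8% of all promoters and in 1 of the 6. Both were also searched on both strands, and a match is a description of the letters only. The table holds no entry for Wnt10a or Fzd2.

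By day 3 of differentiation, 2 Wnt ligands, 2 Frizzled receptors and 1 Dickkopf protein had risen and 1 Frizzled receptor had fallen. Over all 14312 transcripts tested with limma, 13.0% were called higher and 18.0% lower on day 3 than on day 0 in a fit to both siRNAs, at a Benjamini-Hochberg adjusted p under 0.05. Of the 26 members tested, 5 rose (Wnt10a, Wnt9a, Fzd2, Fzd1 and Dkk3), which is 19.2%, and 1 fell (Fzd6), which is 3.85%. The median log2 change was 0.27 for the members and -0.08 for all transcripts. Since the cultures were bulk samples, fewer cells of a type and less RNA per cell cannot be told apart in any of these levels. With no replicates, the error in this fit is the departure of the 8 libraries from a sum of a day term and an siRNA term, with 3 residual degrees of freedom. Under another scaling of the libraries, the split of calls over all transcripts on day 3 moved from 42.0% higher to 53.8% (median-ratio scaling) or 51.9% (upper-quartile scaling), and with either scaling the call of Fzd6 was lost and Axin2 was called higher in its place. Over all the alternatives run, between 4 (without the day 2 libraries) and 8 members (without those of day 1) were called.

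Wnt10a was the ligand with the largest change over days. Its level in siCtrl was 17.7, 25.9, 112.5 and 222 FPKM on days 0, 1, 2 and 3, and in siKlf5 it was 5.72, 16.1, 49.99 and 57.1 FPKM. Both series increased at every step, and the siKlf5 library was the lower one on each of the 4 days. Wnt10a lies on chromosome 1 (mm9, 74838593 to 74850749, plus strand), and canonical signalling by this ligand is best known from tooth, skin and bone. The shared change from day 0 to day 3 was a log2 difference of 3.35 (SE 0.33, limma adjusted p = 0.00018).

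Wnt9a followed a like course, with 24.2, 41.4, 129.0 and 118.6 FPKM in siCtrl and 15.9, 31.7, 61.4 and 66.4 FPKM in siKlf5. It is a ligand known from joint formation and lies on chromosome 11 (mm9, 59120432 to 59147054, plus strand). Its siKlf5 level was again the lower one on all 4 days, and the days 2 and 3 libraries lay above the days 0 and 1 libraries within each siRNA. The day 3 minus day 0 difference was 2.12 on the log2 scale (SE 0.24, limma adjusted p = 0.000375).

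Wnt10b, a ligand known for holding back fat differentiation of mesenchymal precursors, led the ligands before differentiation. It was at 105.1, 41.5, 48.4 and 72.3 FPKM in siCtrl and at 98.2, 86.5, 66.5 and 69.4 FPKM in siKlf5. The highest value in each siRNA was that of day 0, and the lowest were day 1 in siCtrl and day 2 in siKlf5. The day 3 minus day 0 difference was -0.51 (SE 0.28, limma adjusted p = 0.205) and did not pass. Wnt7b was at 10.1, 17.4, 13.4 and 5.51 FPKM in siCtrl and at 17.9, 16.7, 11.2 and 3.65 in siKlf5, so that the day 3 library was the lowest of each siRNA. Its day 3 minus day 0 difference of -1.40 (SE 0.47) had a limma adjusted p of 0.0542. Wnt7b shares 38 exon bases with the noncoding gene AU022754 on the opposite strand, and both strands were counted.

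**Figure D1:**
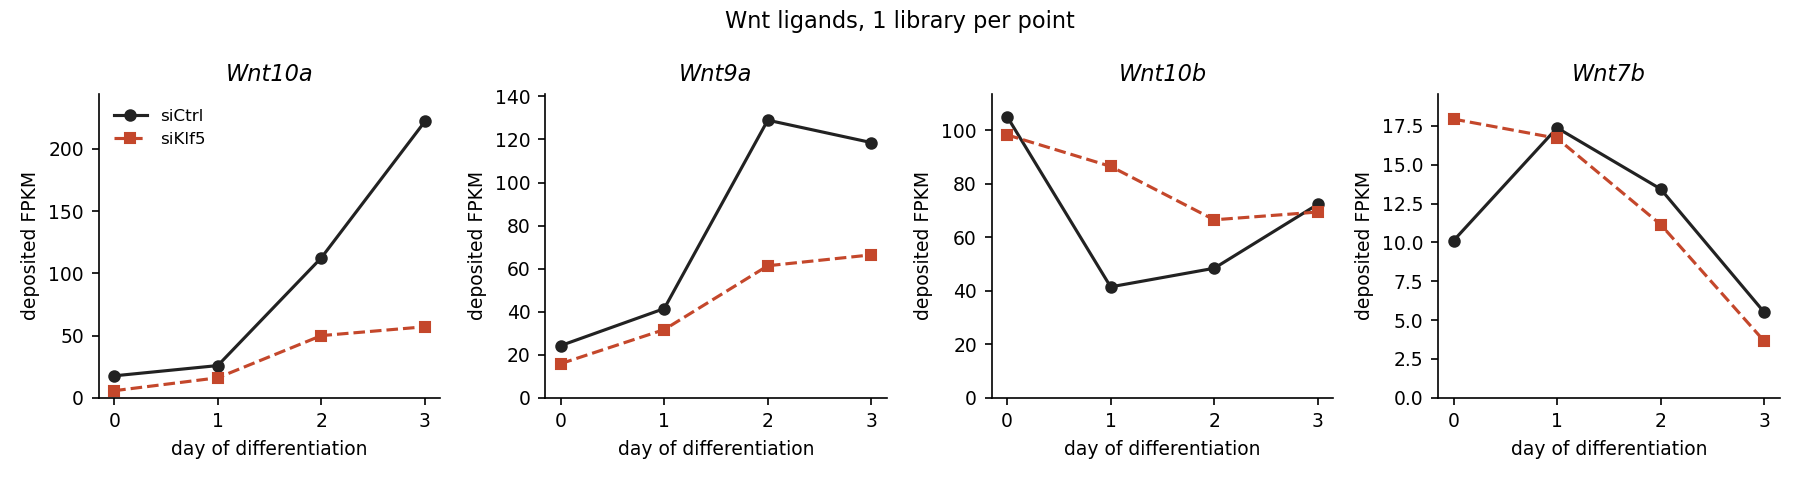
Deposited FPKM (vertical axes from 0, a scale for each gene) of the 4 ligands with a mean of at least 10 against the day of differentiation, with 1 library per point, siCtrl as black circles and siKlf5 as red squares. Wnt10a reached 222 FPKM in siCtrl and 57.1 in siKlf5 on day 3, while Wnt10b ended at 72.3 and 69.4.

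The make-up of the ligand pool thus differed between the first and the last day. Summed over the 19 ligands, the level was 168, 130, 319 and 437 FPKM in siCtrl and 144, 159, 201.3 and 211 FPKM in siKlf5 on days 0 to 3. Wnt10b made up 62.5% of the siCtrl sum on day 0 and 16.5% on day 3, and Wnt10a made up 10.5% on day 0 and 50.8% on day 3. In siKlf5, Wnt10b made up 68.2% and 32.8% of the sum on these days, and Wnt10a 3.97% and 27.0%. The 15 ligands with a mean under 10 held between 2.61% and 7.04% of the sum in any library. These shares are descriptions of single libraries, and no test was made on them.

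**Figure D2:**
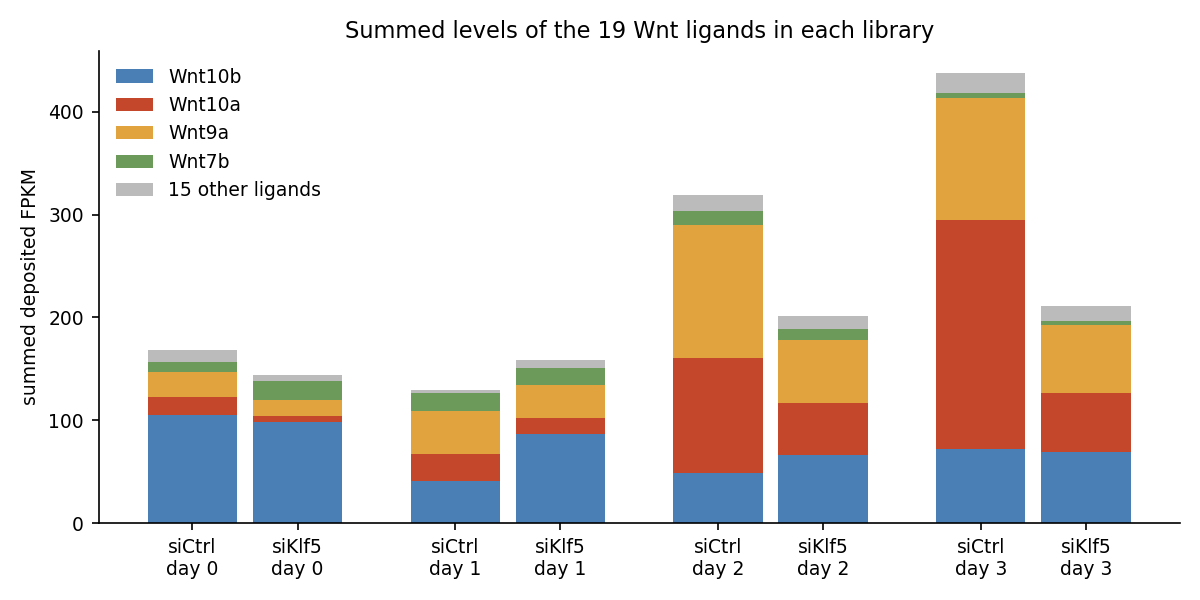
Stacked bars of the summed deposited FPKM of the 19 Wnt ligands in each of the 8 libraries, grouped by day, with the 15 ligands of a mean under 10 in grey. The siCtrl sum was 437 FPKM on day 3 against 211 in siKlf5, and most of the day 3 siCtrl bar was Wnt10a and Wnt9a.

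Each of the 3 most abundant ligand genes has a ligand neighbour on its chromosome that was scarcely detected. In the mm9 coordinates of the table, Wnt6 ends 6.70 kb before Wnt10a on the same strand, Wnt3a lies 16.2 kb from Wnt9a on the opposite strand, and Wnt1 lies 11.7 kb from Wnt10b on the opposite strand. The highest level in any library was 4.91 FPKM for Wnt6, 1.64 for Wnt3a and 2.15 for Wnt1. The 1 other pair of ligand genes within 100 kb, Wnt9b and Wnt3, had highest levels of 1.16 and 1.80 FPKM. Clustered Wnt gene pairs of this kind are conserved among vertebrates.

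Among the Frizzled receptors, Fzd1 and Fzd2 rose together. Fzd1 was at 98.8, 87.3, 176.5 and 218 FPKM in siCtrl and at 89.5, 126, 184 and 210 in siKlf5, so that all 4 libraries of days 2 and 3 lay above all 4 of days 0 and 1. The change by day 3 was 1.18 on the log2 scale (SE 0.18, limma adjusted p = 0.00149). Fzd2 was at 110, 148, 212 and 223 FPKM in siCtrl and at 102, 151, 194 and 191 in siKlf5, and here the day 1 libraries lay between those of day 0 and those of days 2 and 3. Its change by day 3 was 0.95 (SE 0.13, limma adjusted p = 0.000804). Fzd1 lies on chromosome 5 (mm9, 4753839 to 4758216, minus strand) and Fzd2 on chromosome 11 (mm9, 102465745 to 102469372, plus strand).

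Fzd7, a receptor known for binding Wnt7a on satellite cells, was the most abundant member and dipped on day 1. It was at 204, 117, 216 and 229 FPKM in siCtrl and at 191, 134, 207 and 204 in siKlf5, and the day 1 library was the lowest of each siRNA. Wnt7a itself did not exceed 0.974 FPKM in any library. Fzd6, known for planar polarity of skin and hair, was at 106, 106, 88.2 and 58.6 FPKM in siCtrl and at 108, 99.4, 84.0 and 80.3 in siKlf5, with day 3 the lowest of each. It fell by 0.63 on the log2 scale by day 3 (SE 0.18, limma adjusted p = 0.0313), a call lost with the other scalings (adjusted p = 0.0653 and 0.0625) and without the day 2 libraries (0.0756).

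Fzd5 and Fzd3 were lower throughout. Fzd5 was at 14.6, 27.1, 28.8 and 20.6 FPKM in siCtrl and at 22.8, 30.3, 36.4 and 24.6 in siKlf5, with the siKlf5 library the higher one on each day. Fzd3, known from axon guidance, was at 11.4, 15.4, 15.0 and 11.5 in siCtrl and at 8.34, 11.9, 12.2 and 19.2 in siKlf5. Neither passed in any comparison. Of the co-receptors, Lrp5 was at 186, 220, 168 and 145 FPKM in siCtrl and at 180, 143, 150 and 121 in siKlf5. The day 3 library was the lowest of each siRNA, and the day 3 minus day 0 difference was -0.46 (SE 0.16, limma adjusted p = 0.0525). Lrp6 was at 72.6, 91.0, 80.4 and 77.1 in siCtrl and at 65.6, 85.6, 71.2 and 89.1 in siKlf5, a range in which the siRNAs overlapped.

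**Figure D3:**
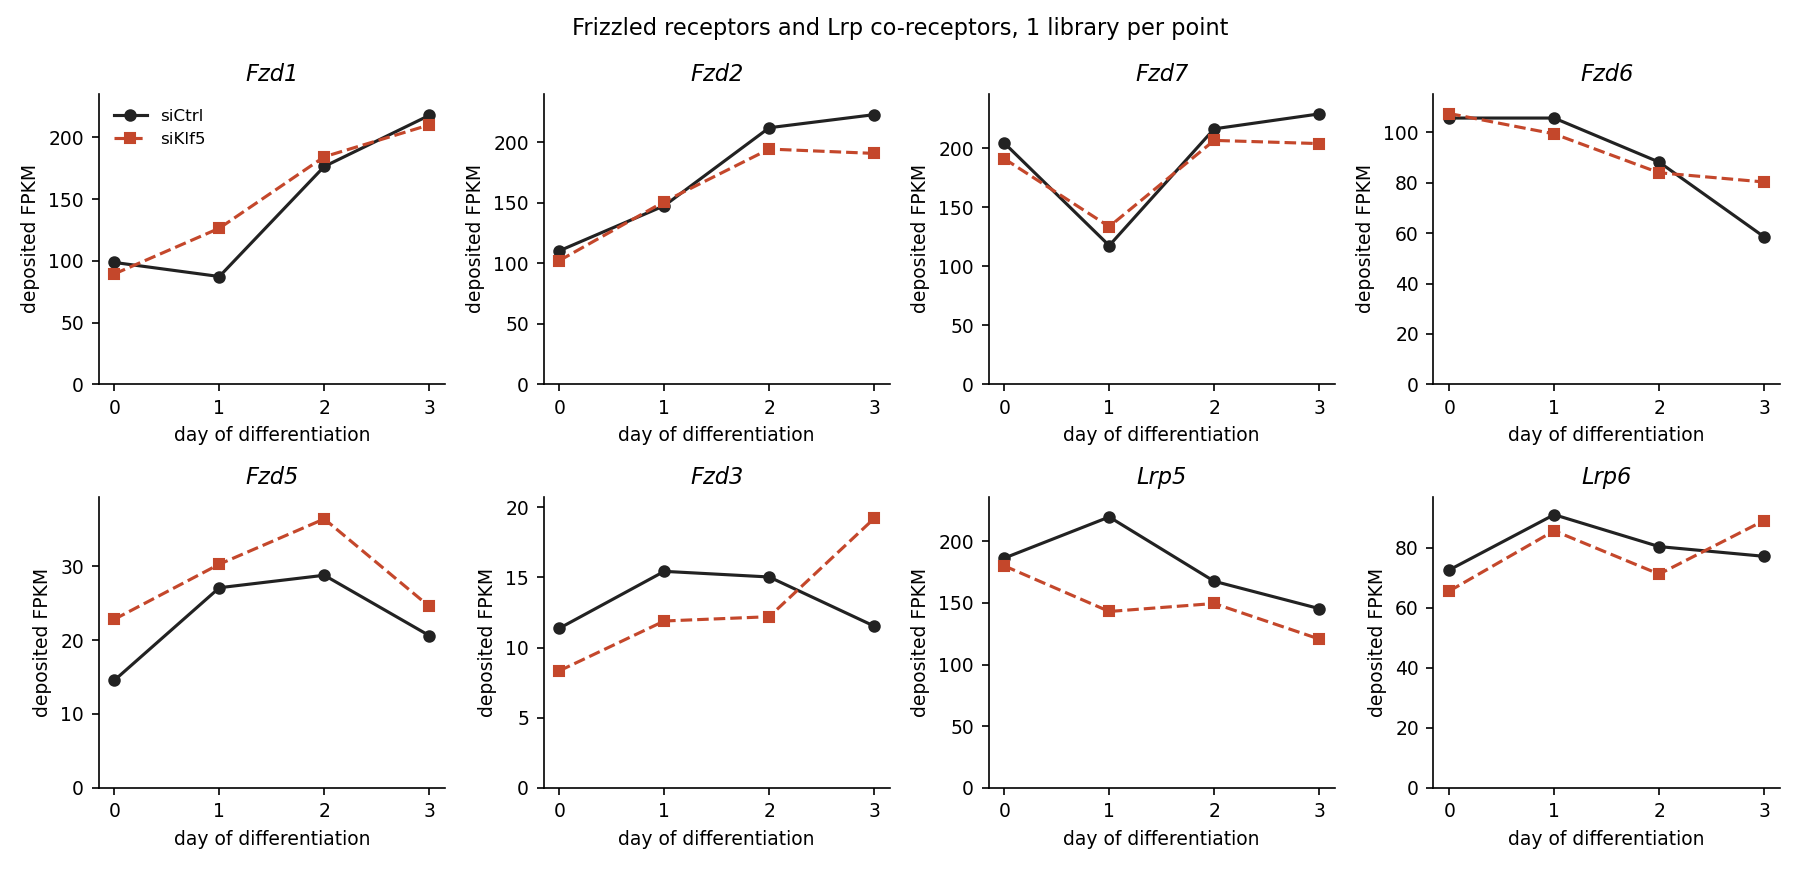
Deposited FPKM (vertical axes from 0, a scale for each gene) of the 6 Frizzled receptors with a mean of at least 10 and of Lrp5 and Lrp6 against the day of differentiation, with 1 library per point, siCtrl in black and siKlf5 in red. Fzd1 and Fzd2 were at least 176.5 FPKM in every library of days 2 and 3, and Fzd7 was lowest on day 1 with both siRNAs.

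Among the antagonists, only Dkk3 passed the day 3 comparison. It was at 0.911, 1.86, 10.1 and 13.6 FPKM in siCtrl and at 1.504, 5.38, 9.99 and 6.17 in siKlf5, so that the day 3 library was above the day 0 library with both siRNAs. The change was 2.22 (SE 0.66, limma adjusted p = 0.0344), and without the day 2 libraries its adjusted p was 0.0836. Its day 0 values rested on only 6 recovered reads in siCtrl and 9 in siKlf5, and its day 3 values on 93 and 37. Dkk3 is a divergent Dickkopf protein that does not block Lrp5 and Lrp6 as the others do. Dkk2, which binds Lrp5 and Lrp6, was at 33.9, 138.9, 33.5 and 20.6 FPKM in siCtrl and at 24.6, 42.8, 36.0 and 17.8 in siKlf5. The siCtrl library of day 1 stood far above the other 7.

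Sfrp4 was at 11.6, 10.3, 9.87 and 2.51 FPKM in siCtrl and at 3.83, 5.14, 5.00 and 5.10 in siKlf5, on 9 to 58 recovered reads per library. The siCtrl library was the higher one on days 0, 1 and 2 and the lower one on day 3. Sfrp2 ranged from 0 to 5.93 FPKM, and Sfrp1 and Sfrp5 did not exceed 1.51 and 1.03. Sfrp2 shares 347 exon bases with the noncoding gene Gm16790 on the opposite strand.

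Axin1, the constitutive scaffold of the destruction complex, was at 175, 141, 137 and 135 FPKM in siCtrl and at 167, 146, 142 and 133 in siKlf5, and its day 3 minus day 0 difference was -0.35 (SE 0.12, limma adjusted p = 0.063). Axin2, a direct target of beta-catenin used as a readout of canonical signalling, was at 2.51, 2.76, 9.68 and 8.96 FPKM in siCtrl and at 2.37, 2.83, 9.94 and 9.21 in siKlf5. All 4 libraries of days 2 and 3 lay above all 4 of days 0 and 1, and the daily log2 ratio of siKlf5 to siCtrl lay between -0.06 and 0.03. These ratios rested on 15 to 138 recovered reads per library. Their counting intervals ran from -3.13 to 3.27 on day 1, the widest, and from -1.04 to 1.07 on day 2, the narrowest. Of other reported targets tested, Tnfrsf19, Fst, Myc and Ccnd1 were lower in siKlf5 in the fit over all days. Wisp1, Wisp2, Apcdd1 and Nkd2 were higher, and none of these passed with limma. Whether canonical signalling differed between the siRNAs was not tested. The day 3 minus day 0 difference was 1.55 (SE 0.53, limma adjusted p = 0.0557) and did not pass as deposited, but it did with median-ratio scaling (adjusted p = 0.0476), with upper-quartile scaling (adjusted p = 0.0493) and without the day 1 libraries (adjusted p = 0.0457). Axin2 shares 209 exon bases with Gm11670 on the opposite strand.

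On the first day of differentiation fewer transcripts were called than by day 3, among the members and over the whole table alike. Over all transcripts 6.76% were called higher and 10.3% lower on day 1 than on day 0, and of the 26 members 2 rose (7.69%) and 1 fell (3.85%). Fzd2 rose by 0.49 on the log2 scale (SE 0.13, limma adjusted p = 0.0306) and Wnt9a by 0.85 (SE 0.24, limma adjusted p = 0.0433), and Fzd7 fell by 0.65 (SE 0.13, limma adjusted p = 0.0108). Wnt9a lost its call with a pseudocount of 10 (difference 0.64, adjusted p = 0.0887). Dkk2 differed by 1.39 (SE 0.41) with a limma adjusted p of 0.0516, and passed with median-ratio (adjusted p = 0.0454) and upper-quartile scaling (adjusted p = 0.0441), and Wnt10b by -0.75 (SE 0.28, limma adjusted p = 0.107). Without the day 2 libraries none of the 26 passed with limma, and without those of day 3 only Fzd7 did. Calls over all transcripts were 39.6% higher as deposited, 54.1% with median-ratio and 57.6% with upper-quartile scaling, and the last of these moved the median of all transcripts by 0.12.

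The question of the siRNA comparison was which of these genes differ when Klf5 is reduced. In the fit over all days, 0.00699% of transcripts were called higher and 0.0629% lower in siKlf5, which is 1 and 9 of 14312, and Klf5 itself was among the latter with a log2 difference of -1.92 (SE 0.19, limma adjusted p = 0.0122). None of the 26 members passed with limma, and 4 had an unadjusted p under 0.05 (15.4%, against 9.90% of all transcripts). These were Wnt10a, Wnt9a, Fzd8 and Lrp5. The median log2 difference was -0.04 for the members and 0.01 for all transcripts. In the fit of the slope over days, 0% of transcripts, and so none of the members, differed between the siRNAs with limma, and 329 transcripts but no member had an unadjusted p under 0.05.

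Wnt10a had the smallest adjusted p of the members in this comparison. Its siKlf5 minus siCtrl difference over the 4 days was -1.31 on the log2 scale (SE 0.23, 95% interval -1.84 to -0.77, limma adjusted p = 0.124), and over 12 alternative settings the adjusted p lay between 0.0833 and 1.00. It was lower in siKlf5 on 4 of 4 days. The share of all transcripts that kept 1 side on all 4 days is not given here, so such runs are descriptions only. The difference of Wnt9a was -0.71 (SE 0.17, limma adjusted p = 0.229, between 0.173 and 1.00 over 12 settings), also lower on 4 of 4 days. Lrp5 was lower on 4 of 4 days as well, by a smaller amount, with a difference of -0.27 (SE 0.11, limma adjusted p = 0.465) that was -0.16 without the day 1 libraries.

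3 receptors with low counts also kept 1 side on every day, which is again a description only. Fzd8 was at 0.608, 1.40, 2.85 and 3.06 FPKM in siCtrl and at 3.85, 3.59, 10.0 and 9.19 in siKlf5, on 4 to 65 recovered reads per library, and was higher in siKlf5 on 4 of 4 days. Its difference was 1.34 (SE 0.43, limma adjusted p = 0.359). Fzd4, known for retinal vessel growth, was at 4.42, 9.75, 8.01 and 4.24 FPKM in siCtrl and at 19.9, 11.2, 10.3 and 10.6 in siKlf5, again higher on 4 of 4 days, with a difference of 0.90 (SE 0.40, limma adjusted p = 0.507) that was 0.55 without the day 0 libraries. Fzd9 was lower in siKlf5 on 4 of 4 days, at 3.62, 5.18, 8.76 and 12.0 FPKM in siCtrl and 3.45, 2.14, 3.42 and 6.09 in siKlf5, with a difference of -0.76 (SE 0.40, limma adjusted p = 0.572). Its day 0 values rested on 15 reads in siCtrl and 13 in siKlf5. Wnt11 was at 1.28, 3.38, 2.69 and 3.70 in siCtrl and at 0, 0, 3.34 and 1.81 in siKlf5, on at most 25 reads, and it shares 364 exon bases with the pseudogene Gm8398 on the opposite strand.

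**Figure D4:**
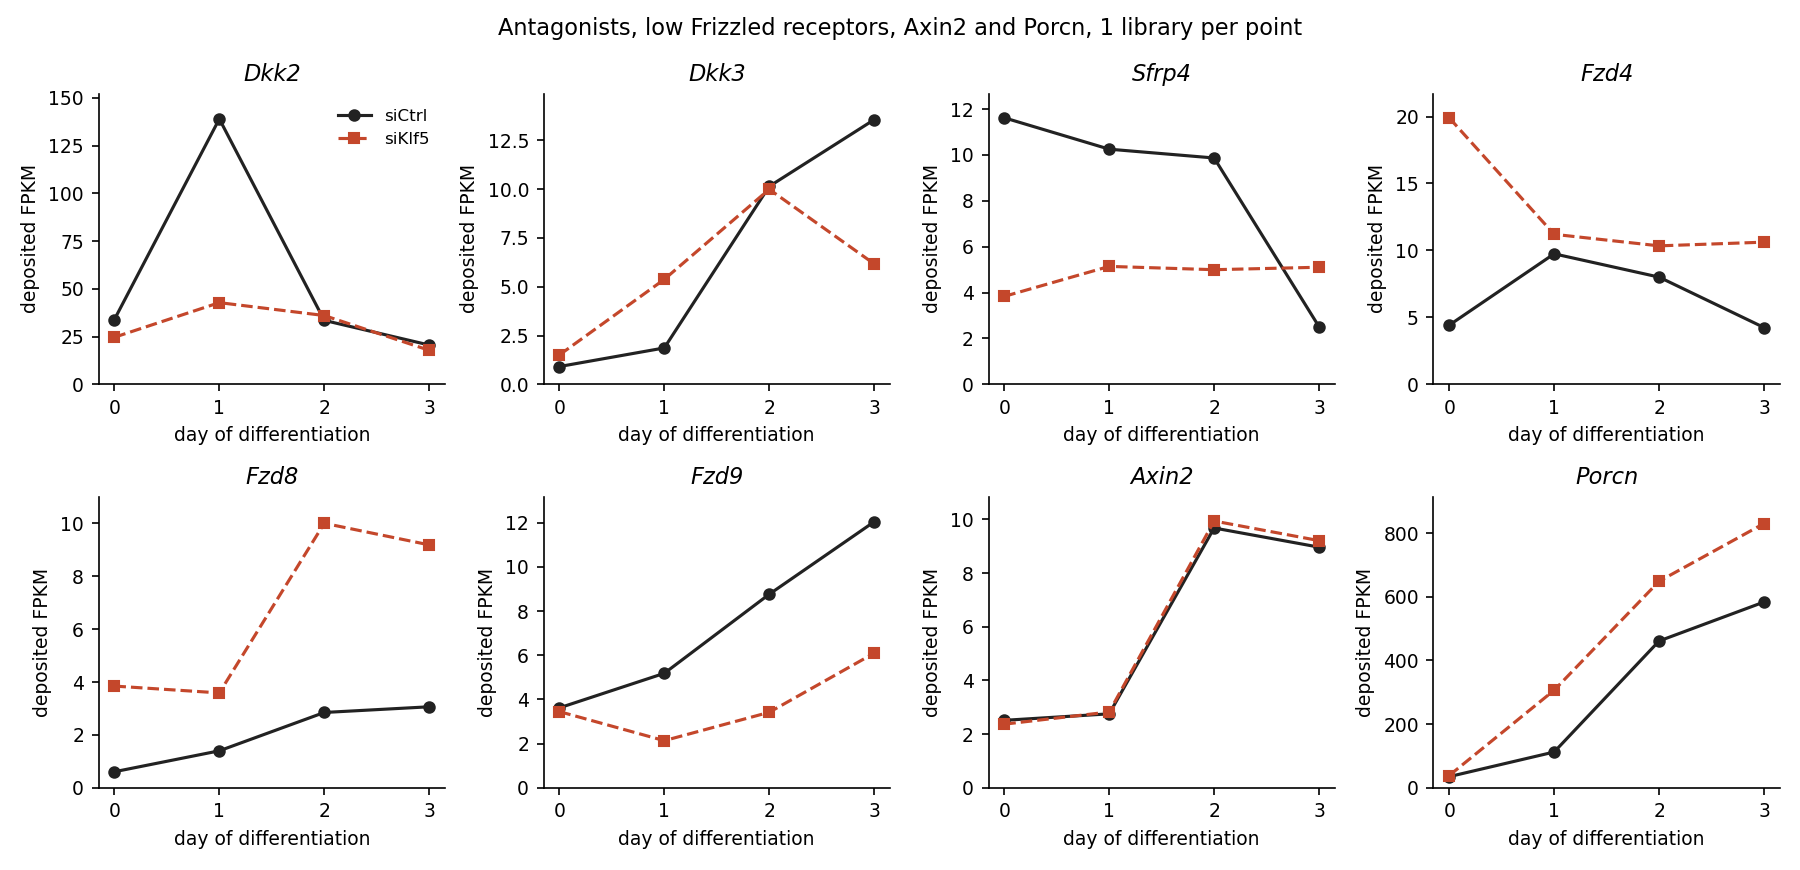
Deposited FPKM (vertical axes from 0, a scale for each gene) of Dkk2, Dkk3, Sfrp4, Fzd4, Fzd8, Fzd9, Axin2 and Porcn against the day of differentiation, with 1 library per point, siCtrl in black and siKlf5 in red. Dkk2 reached 138.9 FPKM in siCtrl and 42.8 in siKlf5 on day 1, Fzd8 and Fzd4 were higher in siKlf5 on every day, and the Axin2 lines lay on each other.

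Single days allow no test, so each day was described by the log2 ratio of siKlf5 to siCtrl, with 1 added to each FPKM, and by a 95% Clopper-Pearson interval on the ratio of recovered reads in units of 6. On day 0, 4 of the 26 members were past 1.5-fold higher in siKlf5 and 4 lower, against 8.18% and 10.0% of all transcripts. On day 1 there were 6 and 6, against 15.6% and 10.3%. On day 2 there were 2 and 5, against 6.78% and 11.6%, and on day 3 there were 5 and 7, against 9.90% and 11.6%. Most of these had low levels: of the 14 members with a mean of at least 10, 3, 4, 2 and 3 were past 1.5-fold on the 4 successive days. The share of all transcripts with such a mean is not given here. The interval lay on 1 side of 0 for 1, 4, 3 and 5 of the 26 on these days. Intervals were computed for members only, so these counts have no share of all transcripts beside them and are descriptions only.

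Wnt10a was past 1.5-fold lower in siKlf5 on all 4 days. Its log2 ratio was -1.47 on day 0 and -0.65 on day 1, where the intervals included 0, then -1.15 on day 2 (interval -1.78 to -0.60) and -1.94 on day 3 (interval -2.55 to -1.41), on 890 reads in siCtrl and 200 in siKlf5. Wnt9a had ratios of -1.06 on day 2 (interval -1.49 to -0.67) and -0.83 on day 3 (interval -1.28 to -0.40). On days 2 and 3 these were the only members with a mean of at least 10 past 1.5-fold lower.

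On day 1 the order of the genes was another. Dkk2 had a ratio of -1.68 (interval -2.29 to -1.14, 659 against 211 reads), and on the other 3 days its interval included 0. Wnt10b had a ratio of 1.04 (interval 0.26 to 1.91, 118 against 256 reads), Fzd1 of 0.53 (interval 0.12 to 0.96) and Lrp5 of -0.62 (interval -0.91 to -0.33). The siCtrl library of day 1 is the shallowest of the 8 with 7850497 recovered reads, and the siKlf5 library of day 1 is close to it with 8119452. On day 2 the depths differed more, with 20301506 recovered reads in siCtrl, the deepest library, and 11808641 in siKlf5. The part of depth in the ratios of these days was not tested. On day 3 the interval of Fzd3 (ratio 0.69, interval 0.20 to 1.28) and that of Fzd6 (ratio 0.45, interval 0.02 to 0.90) also lay above 0, and on day 0 that of Fzd4 did (ratio 1.95, interval 0.77 to 3.87). Fzd8 on day 2 (ratio 1.52, interval 0.19 to 3.63) and Wnt4 on day 3 (ratio -2.05, interval -8.40 to -0.09, 53 against 6 reads) were the others.

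**Figure D5:**
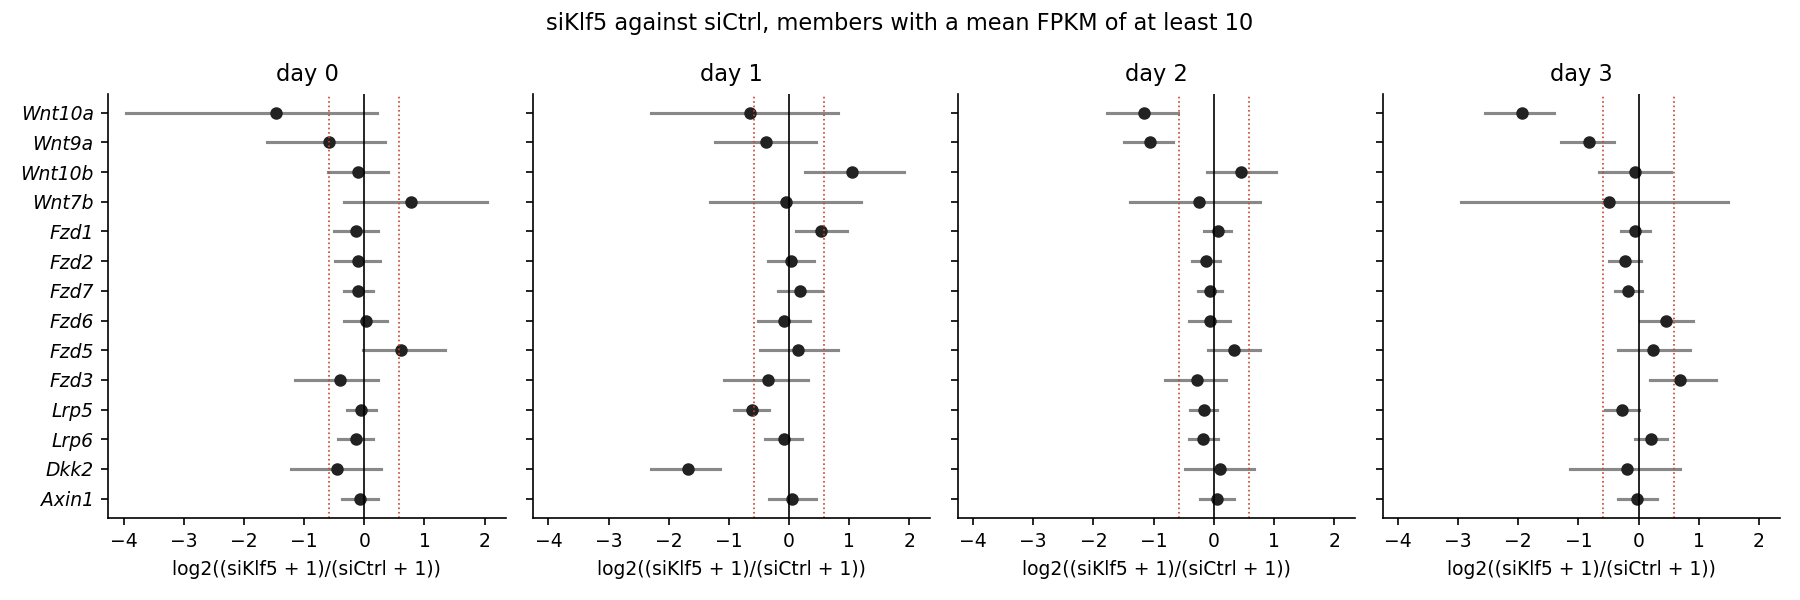
Log2 ratio of siKlf5 to siCtrl, with 1 added to each FPKM, for the 14 members with a mean of at least 10 on each day. Points are ratios of single libraries, bars are 95% Clopper-Pearson intervals on recovered reads in units of 6 that cover counting error only, and dotted lines mark 1.5-fold. Wnt10a and Wnt9a lay left of their dotted line on days 2 and 3, and Dkk2 did on day 1.

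Other genes of the pathway were taken from a list of 60, of which 47 entered the tests. In the siRNA comparison none of the 47 passed with limma, and 5 had an unadjusted p under 0.05 (10.6%, against 9.90% of all transcripts). Of these 5, Porcn (log2 difference 0.64) and Prickle1 (0.44) were higher in siKlf5. Lower were the reported beta-catenin targets Tnfrsf19 (-1.62), Myc (-0.38) and Ccnd1 (-0.32). By day 3, 8 rose (17.0%, against 13.0% of all transcripts) and 4 fell (8.51%, against 18.0%). By day 1, 5 rose (10.6%, against 6.76%) and 4 fell (8.51%, against 10.3%). The 8 that rose by day 3 were Porcn, Daam2, Dvl3, Csnk1a1, Tle2, Fst, Wisp2 and Tnfrsf19, and those that fell were Ccnd1 and Myc, which drive proliferation, with Lgr6 and Wisp1. The list's 3 genes with the highest means were Ctnnb1, which encodes beta-catenin, between 919 and 1166 FPKM, Csnk1a1, a kinase of the destruction complex, between 677 and 920, and Wls, the carrier that takes Wnts to the cell surface, between 675 and 869.

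Porcn, the acyltransferase that adds the lipid Wnts need for secretion and receptor binding, is singled out here after its values were seen. It was at 35.2, 112, 461 and 583 FPKM in siCtrl and at 38.7, 306, 649 and 830 in siKlf5, so that it increased at each step with both siRNAs and was the higher one in siKlf5 on 4 of 4 days. Its change by day 3 was 4.20 on the log2 scale (SE 0.26, limma adjusted p = 1.37e-05), and its siRNA difference was 0.64 (SE 0.18, limma adjusted p = 0.303).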

How the data were processed

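Poly(A) RNA of 8 C2C12 cultures was analysed, with 1 library per siRNA and day. The authors aligned reads to mm9 with STAR and counted exon reads of RefSeq transcripts with HOMER, on both strands, keeping at most 3 reads per position and 1 transcript per gene. The deposited FPKM values were scaled to a matrix total of 10000000. The 8 deposited log2 columns were not used. Reads were recovered with the exon length, and 100% of the values checked lay within 0.1 of a whole read. Reads recovered over the listed transcripts were 7850497 to 20301506 per library. The library totals implied by the scaling, which the intervals use, were 12822170 to 33592860. Counts of exactly 6 reads outnumbered those of 5, so intervals were computed on reads divided by 6. PCR reads are not independent molecules.

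Log2(FPKM + 1) of transcripts with a mean of at least 1 was fitted with limma 3.58.1 (R 4.3.3, intensity trend) on day and siRNA, or on siRNA, day as a number and their product, two-sided, with Benjamini-Hochberg adjustment over 14312 transcripts. Fold changes on this scale understate those of low genes. The p-values measure departure from the model, not spread between replicates. The fit was also run on simulated counts with Poisson error only, which cannot check its error against variation between cultures. No batch is given in the sources used here.

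Values in every library are given for members with a mean of at least 10, and for members from a mean of 1 upward if they passed a test or were past 1.5-fold the same way on 3 or more days. Fzd4, Axin2 and Porcn were added after their values were seen. Members and lists were chosen with earlier results of these data known. Gene overlaps are from GENCODE vM1 (mm9) and promoters from RefSeq (GRCm38.p6). Alternatives changed the pseudocount, filter, scaling, variance prior, days used and day term. Figures were drawn with matplotlib 3.10.9.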

Additional observations from a re-analysis of the deposited data

How the results depend on the processing

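No member passed the siRNA comparison or the slope comparison under any alternative run. The 10 transcripts called over the whole table for the siRNA effect were 21 with a mean of at least 10, and 0 with no filter, with one variance prior, with no day term and without any 1 of the days (0 to 0). At day 3, Wnt10a, Wnt9a and Fzd2 passed under every alternative. Fzd1 lost its call with no filter only (adjusted p = 0.0546 with limma), Dkk3 with no filter, one variance prior and without day 2, and Fzd6 with these and both scalings. Axin2 was called in 6 of the alternatives, and Lrp5, Wnt7b, Axin1, Fzd8 and Wnt3 in 1 or 2 each. The number of transcripts called at day 3, 4444 as reported, was 2143 with no filter and 2926 with one variance prior. At day 1 the members called went from 3 to 0 with no filter and 0 with one variance prior, and to between 0 and 1 without 1 of the later days. Wnt9a also lost its day 1 call with a pseudocount of 10. The 2444 transcripts called were 599, 856 and between 1157 and 1373 under these. No single-gene value changed sign. Of the single-gene values under an alternative, 21 lost a call and 210 did not. The 210 include siRNA differences that were never called, and day ratios, which have no threshold and were compared with their count intervals. Calls gained by other members are not among these values. Members past 1.5-fold, 8, 12, 7 and 12 on days 0 to 3, were 3 on each day with a pseudocount of 10 and 3, 4, 2 and 3 with a mean of at least 10. With a 2-fold cutoff there were 6 on day 1 and 7 on day 3, and with no filter 11 on day 2. The siRNA fit as reported has day as a term and so already compares the siRNAs within each day.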
